A study of Homo sapiens with 4 samples.

Results

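The NEK kinases were examined in U87MG cells, an established human glioblastoma cell line, by polyA-selected RNA sequencing. The 9 genes NEK1, NEK2, NEK3, NEK4, NEK6, NEK7, NEK8, NEK9 and NEK11 were taken by symbol from the 57905 genes in the count tables. NEK3 was chosen by its measured log2 fold change, among the strongest falls with chaetocin, a fungal metabolite known as an inhibitor of histone methyltransferases, and the other 8 were taken as its paralogs. The study had 2 samples of untreated wild-type U87MG cells (control) and 2 samples of the same cells given 50 nM chaetocin, dissolved in DMSO, for 24 h, all at passages 8 to 10. The controls received no DMSO, so the compound and its solvent cannot be told apart here. The sources do not say that the samples of a group were separate cultures, so the p-values measure only the spread between these samples, which may be technical.

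NEK kinases are serine/threonine kinases named after the fungal cell cycle regulator NIMA (never in mitosis A). NEK2, NEK6, NEK7 and NEK9 act in mitosis: NEK2 dissolves the linker that holds the centrosomes together, and NEK9 activates NEK6 and NEK7, which help to build the spindle. NEK1, NEK4 and NEK8 are known for roles at the primary cilium and in the response to DNA damage, NEK11 for the G2/M checkpoint, and NEK3 for signalling from the prolactin receptor through VAV exchange factors to RAC1.

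The libraries held between 21241984 and 32590479 counts. Values are given as CPM, the count of a gene relative to the total of its library, scaled with TMM factors, which correct for differences in composition between libraries. Of 16416 genes tested, edgeR's quasi-likelihood test called 182 higher (1.11%) and 122 lower (0.743%) with chaetocin at a Benjamini-Hochberg adjusted p under 0.05. An unadjusted p under 0.05 was found for 10.9% of tested genes above 0 and 9.43% below. DESeq2, run on the same counts, called 2.25% higher and 2.82% lower of the 16945 genes to which it gave an adjusted p. The summed level of 8 glioblastoma and glial markers was 5498 and 4793 CPM in control and 3223 and 1972 CPM in chaetocin samples. VIM and CD44 carried nearly all of it, while AQP4 had no count in any sample and GFAP averaged 0.947 CPM in control. Summed leukocyte markers, 4 of them with any count, were 0.287 and 0.452 CPM in control and 2.25 and 2.93 CPM in chaetocin samples, with the defining T cell marker CD3E at 0. The pan-leukocyte marker PTPRC, with 0 and 1 counts in control and 15 and 27 with chaetocin (adjusted p = 0.0412), and the myeloid marker ITGAM, with 0 and 1 counts in control and 24 and 29 with chaetocin (adjusted p = 0.0341), were both called higher by edgeR, having passed the filter on low counts only through the treated samples. The sum of the endothelial markers, 3 of the 4 on the list, was 9.38 and 14.3 CPM in control and 7.40 and 8.61 CPM with chaetocin. KDR carried it, at 8.52 and 13.0 CPM in control and 5.28 and 5.46 CPM with chaetocin, while VWF was at 0.574 and 1.15 CPM in control and 1.93 and 2.67 CPM with chaetocin, and edgeR called neither. DESeq2 called KDR (adjusted p = 0.0323), VIM (0.00998) and CD44 (8.6e-05) lower and ITGAM higher (0.0236), and did not call PTPRC (0.0569). The sum of the epithelial markers was between 1.95 and 2.38 CPM in control and between 3.69 and 3.86 CPM with chaetocin. The part of these shifts in the NEK values was not tested. In bulk RNA, fewer cells of a type and less RNA per cell cannot be told apart.

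NEK3 lies on the minus strand at chr13:52132639-52159861 (GRCh38, ENSG00000136098). It had 50 and 71 counts in the control samples and 12 in each chaetocin sample. These correspond to 2.05 and 2.47 CPM in control and to 0.551 and 0.338 CPM with chaetocin. Both treated samples lay below both controls. The 95% counting intervals, 37.1 to 65.9 and 55.5 to 89.6 counts in control and 6.20 to 20.96 counts in each treated sample, did not meet either. They cover counting error only, and are too narrow where reads, amplified by PCR without molecular identifiers, are copies of the same molecule. The group means were 2.26 ± 0.298 CPM in control and 0.445 ± 0.151 CPM with chaetocin (SD, n = 2 each). NEK3 was thus 5.21-fold lower, or -2.38 on the log2 scale (SE 0.43, 95% interval -3.38 to -1.39). Because NEK3 was chosen for this fall, the values are a description and no p is given. Only 4 of the tested genes had a lower log2 fold change, and 1 of these was among the 122 called lower. NEK3 was a weakly expressed gene already in control, where 27.1% of tested genes had a lower mean. With 12 counts in each treated sample, it also stayed in when at least 10 counts were required in every sample. The filter on low counts used for the tests was 10 counts or 0.355 CPM in the median library, before TMM scaling.

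All 9 members passed this filter. Of the 9, 2 were called, NEK3 lower and NEK7 higher, while 1.85% of all tested genes were called in either direction, and the fall of NEK3 is what it was chosen by. Members whose chaetocin samples both lay above both controls numbered 3 (NEK2, NEK7 and NEK8), against 26.8% of all tested genes. Members that lay below both controls also numbered 3 (NEK3, NEK6 and NEK11), against 26% of all tested genes. NEK1, NEK4 and NEK9 overlapped between the groups. The log2 fold changes had a median of -0.17 over the 9 members and 0.01 over all tested genes, with 4 members above 0 and 5 below. DESeq2 called NEK7 higher and NEK6 lower, beside NEK3, which was chosen by its fall, where it called 2.25% higher and 2.82% lower of all genes.

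**Figure D1:**
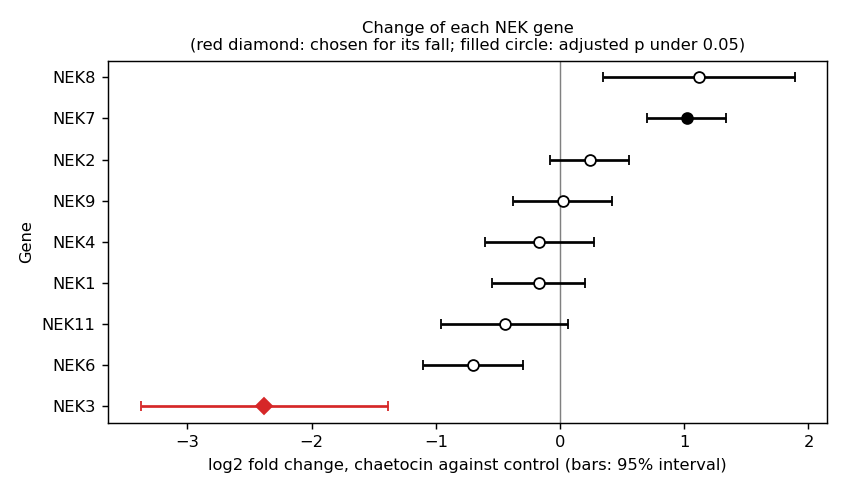
Log2 fold change of each NEK gene, chaetocin against control (x axis), with its 95% interval as a bar, and 1 gene per row. NEK3 (red diamond, chosen for its fall) lies at -2.38, NEK7 (filled circle, adjusted p under 0.05) at 1.02 and NEK8 at 1.12 with a wider interval, while the intervals of NEK1, NEK2, NEK4, NEK9 and NEK11 include 0.

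NEK6 and NEK7 are the shortest members of the family, each little more than a catalytic domain, and both are activated by NEK9 in mitosis. NEK7 is also a binding partner of the inflammasome sensor NLRP3. NEK7 (plus strand, chr1:198156963-198322420, ENSG00000151414) was measured at 66.4 and 63.8 CPM in control and at 132 CPM in both chaetocin samples. Its treated samples agreed closely and stood clear of both controls. The means were 65.1 ± 1.86 and 132 ± 0.216 CPM (SD, n = 2 each), a 2.03-fold rise (95% interval 1.63 to 2.53), with an adjusted p of 0.0266 in edgeR's quasi-likelihood test. A lower log2 fold change was found in 93.0% of tested genes. Left with a lone control sample, which is then assumed to vary like the treated ones, the rise remained at 1.04 and 0.98 on the log2 scale, but edgeR's adjusted p was 0.0530 without control replicate 1 and 0.0516 without control replicate 2.

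NEK6 (plus strand, chr9:124257606-124353307) had the opposite sign. Its levels were 109 and 101 CPM in control and 74.2 and 54.9 CPM in the chaetocin samples. Both treated samples lay below both controls and differed more from each other than the controls did. The log2 fold change was -0.70 (SE 0.18, 95% interval -1.10 to -0.30), and edgeR's adjusted p of 0.0808 missed the threshold. DESeq2 gave an adjusted p of 0.0181. The call by edgeR turned when a treated sample was left out, in fits whose spread comes from the 2 controls alone: the log2 fold change was -0.93 with an adjusted p of 0.00039 without chaetocin replicate 1, and -0.51 with an adjusted p of 0.0324 without chaetocin replicate 2. Without a control, where the spread comes from the treated samples alone, edgeR's adjusted p was 0.313 and 0.142.

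Ratios of counts within a library do not depend on any scaling between libraries. The NEK7/NEK6 ratio of counts was 0.611 and 0.631 in control and 1.78 and 2.40 with chaetocin, so NEK6 had the more reads in both controls and NEK7 in both treated samples. The difference of the mean log2 ratios was 1.74. The exact two-sided permutation test gave p = 0.333, the smallest p that 2 samples against 2 allow. NEK9, the activator of both kinases, had ratios to NEK7 of 1.30 and 1.40 in control and of 0.574 and 0.779 with chaetocin (exact permutation p = 0.333). NEK9 itself (minus strand, chr14:75079353-75127344) was at 86.7 and 89.1 CPM in control and at 75.8 and 103 CPM with chaetocin. Its treated samples lay on either side of the controls, with a log2 fold change of 0.02 (95% interval -0.38 to 0.42).

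NEK2 (minus strand, chr1:211658657-211675630) is the centrosomal member, whose transcript peaks late in the cell cycle. It was measured at 80.4 and 83.4 CPM in control and at 93.9 and 99.6 CPM in chaetocin samples. The groups did not overlap, yet the difference was small. The log2 fold change was 0.24 (SE 0.14, 95% interval -0.08 to 0.56) with an adjusted p of 0.372 by edgeR. Beside it, all 12 proliferation genes on the list had log2 fold changes above 0, with a median of 0.34. None of them was called by edgeR, 5 had an unadjusted p under 0.05, and DESeq2 called 1. Over all tested genes 10.9% had an unadjusted p under 0.05 above 0, and DESeq2 called 2.25% higher. The part of the shift of the proliferation genes in the NEK2 values was not tested.

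**Figure D2:**
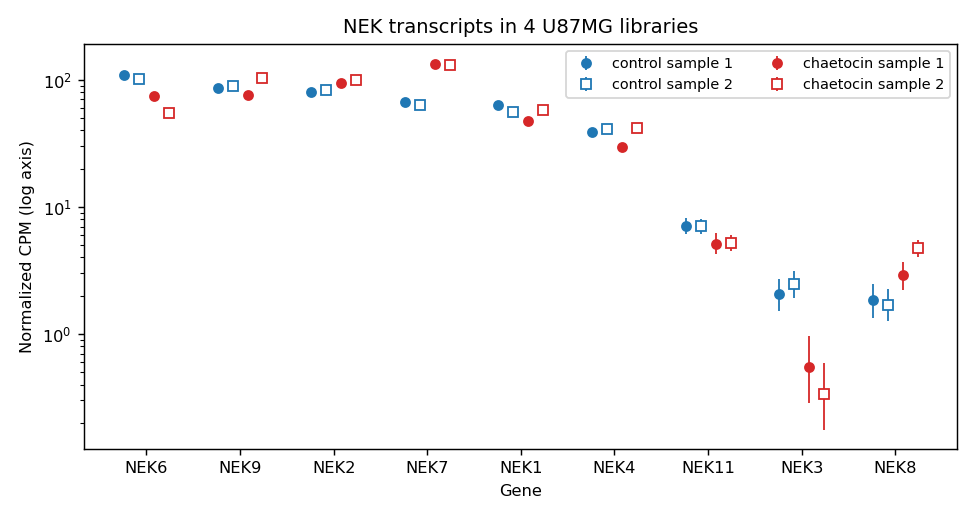
Level of each NEK gene in normalized CPM (y axis, log scale) in the 4 libraries, with control in blue and chaetocin in red, sample 1 as filled circles and sample 2 as open squares, and 95% counting intervals as bars. NEK3 drops from 2.05 and 2.47 CPM to 0.551 and 0.338 CPM, NEK7 lies at 132 CPM in both treated samples, and NEK1, NEK4 and NEK9 overlap between groups.

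NEK8 (plus strand, chr17:28725897-28743455) marks the inversin compartment of the primary cilium. Like NEK3 it was rare, at 1.84 and 1.71 CPM in control and 2.90 and 4.73 CPM with chaetocin, from 45, 49, 63 and 168 counts. Both treated samples lay above both controls and differed from each other. The log2 fold change was 1.12 (SE 0.34, 95% interval 0.34 to 1.89), with an adjusted p of 0.122 by edgeR. The size rested on the treated samples: without chaetocin replicate 1 the log2 fold change was 1.42 and the adjusted p 0.00745 by edgeR, and without chaetocin replicate 2 they were 0.70 and 0.262. The spread in these fits comes from the controls alone. Without control replicate 1 or 2 edgeR's adjusted p was 0.273 and 0.383. TLCD1, on the opposite strand, shares 100 bases (2.26%) of the exons of NEK8 and was called higher, with a log2 fold change of 1.99 (edgeR's adjusted p = 0.046). The antisense gene AC010761.2 shares 729 bases (16.5%) and had 0 counts in every sample. Whether the counting used the strand of the reads is not given in the sources used here, so reads over the shared bases cannot be told apart.

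NEK1 and NEK4 are the other members known at the cilium. NEK1 (minus strand, chr4:169392857-169612629) was at 63.6 and 55.3 CPM in control and at 47.7 and 57.7 CPM with chaetocin. NEK4 (minus strand, chr3:52708449-52770949) was at 38.8 and 41.3 CPM in control and at 29.4 and 41.9 CPM with chaetocin. Both genes overlapped between groups, each with a log2 fold change of -0.17 and intervals of -0.54 to 0.20 for NEK1 and -0.61 to 0.27 for NEK4. Of the exon bases of NEK4, 42.2% also belong to SPCS1 on the opposite strand, whose log2 fold change was -0.02, so the NEK4 level is uncertain. NEK11 (plus strand, chr3:131026850-131350465), a checkpoint kinase that targets CDC25A, was at 7.09 and 7.03 CPM in control and at 5.15 and 5.21 CPM with chaetocin. The samples of each group were nearly alike and the groups did not overlap, but the log2 fold change of -0.45 (SE 0.22, 95% interval -0.96 to 0.06) had an adjusted p of 0.304 by edgeR.

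The order of levels was read per kilobase of annotated exon. In control, NEK2 led at 26.5 CPM per kb, followed by NEK6 at 23.7, NEK7 at 11.9, NEK9 at 8.15, NEK1 at 7.15, NEK4 at 6.27, NEK11 at 1.32, NEK3 at 0.529 and NEK8 at 0.401 CPM per kb. No neighbours in this order overlapped between the control samples, although NEK1 and NEK4 came close, at 6.66 and 6.46 CPM per kb for their nearest samples. With chaetocin, NEK2 was at 31.3 CPM per kb, NEK7 at 24.1, NEK6 at 14.6, NEK9 at 8.27, NEK1 at 6.35, NEK4 at 5.57, NEK11 at 0.967, NEK8 at 0.862 and NEK3 at 0.104 CPM per kb. NEK7 thus stood above NEK6, and NEK3 was last. NEK1 and NEK4, and likewise NEK11 and NEK8, overlapped in the treated samples.

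The sum over the family moved little, from 86.7 and 85.1 CPM per kb in control to 90.3 and 93.8 CPM per kb with chaetocin, while its make-up shifted. NEK7 took 14.0% and 13.7% of the sum in control and 26.7% and 25.6% with chaetocin. NEK6 took 28.4% and 26.9% in control and 18.6% and 13.2% with chaetocin. The share of NEK3 was 0.553% and 0.680% in control and 0.143% and 0.0843% with chaetocin, so its fall hardly bears on the sum.

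Short reads can be shared between near-identical genes. Of the 50-base stretches in the annotated transcripts of each member, 0% were found in transcripts of another gene for NEK6 and NEK7 and 0.81% for NEK3. The figure was 41% for NEK4, 15.2% for NEK8, 9.26% for NEK9, 6.95% for NEK2, 2.81% for NEK11 and 0.163% for NEK1. No NEK gene shared a stretch with a paralog, and NEK2 shared some with its pseudogenes NEK2P2 and NEK2P4. The family genes outside the list were NEK10, with 5.29 and 8.11 CPM in control, 5.74 and 6.36 CPM with chaetocin and a log2 fold change of -0.15, and NEK5. NEK5 had 6 and 22 counts in control and 5 and 9 with chaetocin, too few to be tested.

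NEK3 and NEK5 stand in tandem on the minus strand, with 3560 bases between them. Within 500 kb of NEK3, 23 other genes of the count tables were placed by the annotation, of which 11 were tested. edgeR called 0 of the 11 (1.85% of all tested genes), 3 had an unadjusted p under 0.05 (10.9% of all tested genes above 0 and 9.43% below), and DESeq2 called 0. Their log2 fold changes had a median of -0.11, with 8 below 0 and 3 above, and ran from -0.61 for WDFY2 to 1.72 for TPTE2P2, a pseudogene near the limit of detection. TPTE2P2, 1 of the 3 with an unadjusted p under 0.05, passed the filter on low counts only through the treated samples. The groups overlapped for 7 of the 11, and for 7762 of all 16416 tested genes. CKAP2, a spindle protein, had 73.4 CPM in control and 95.6 CPM with chaetocin and a log2 fold change of 0.38. HNRNPA1L2 was at -0.59, DHRS12 at -0.38, the copper transporter ATP7B at -0.15, ALG11 at -0.13, UTP14C at -0.11, SUGT1 at -0.04, THSD1 at -0.0042 and VPS36 at 0.03 on the log2 scale.

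**Figure D3:**
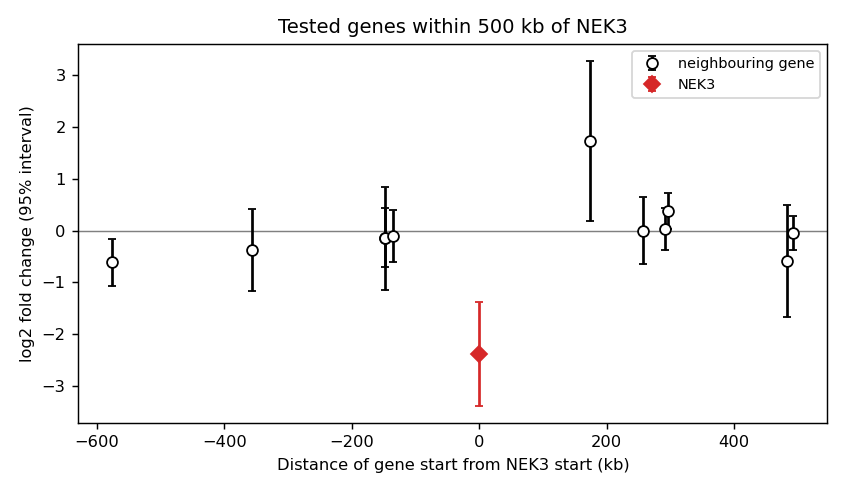
Log2 fold change with its 95% interval (y axis) of the 11 tested genes within 500 kb of NEK3, by the distance of their start from that of NEK3 in kb (x axis). NEK3 (red diamond) is at -2.38, while the neighbours (open circles) lie between -0.61 and 1.72 and 8 of them below 0.

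The genes whose pattern over the 4 samples was nearest to that of NEK3, by the Euclidean distance between centred log2 CPM values, were ITGA10 (distance 0.347), COL22A1 (0.459), ENSG00000256579 (0.569), ANO8 (0.571) and TENM2 (0.579). ITGA10, an integrin that binds collagen, had 7.13 and 7.69 CPM in control and 2.53 and 1.52 CPM with chaetocin. The log2 fold changes of the 5 genes ran from -2.01 to -1.80.

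Promoter windows, the 250 bases before an annotated start in RefSeq (GRCh38.p14), were found for 8 of the members. Windows outside annotated exons are shown for NEK6 and NEK8, the members with the largest changes among those that had one. The windows of NEK3 lie wholly or almost wholly in annotated exons and are not shown. The NEK6 window shown is the most distal of its 5. Those at chr9:124291714-124291963 and chr9:124292170-124292419 also lie outside annotated exons and are not shown. The NEK8 window precedes a RefSeq start that lies inside the span given for NEK8 above from GENCODE. Capitals mark the CCAAT box (letters CCAAT, either strand), and the sequences are on the plus strand, at chr9:124257356-124257605 for NEK6 and at chr17:28728538-28728779 for NEK8.
NEK6: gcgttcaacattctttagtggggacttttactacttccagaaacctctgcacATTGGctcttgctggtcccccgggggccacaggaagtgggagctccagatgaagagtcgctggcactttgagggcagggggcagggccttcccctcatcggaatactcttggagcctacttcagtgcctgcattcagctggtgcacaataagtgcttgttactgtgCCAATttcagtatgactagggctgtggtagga
NEK8: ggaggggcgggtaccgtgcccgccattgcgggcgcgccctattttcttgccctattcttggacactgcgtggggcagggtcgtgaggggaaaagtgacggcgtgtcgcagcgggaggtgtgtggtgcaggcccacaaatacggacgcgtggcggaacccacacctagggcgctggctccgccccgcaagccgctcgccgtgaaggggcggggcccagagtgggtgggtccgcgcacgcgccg
The NEK6 window holds 2 CCAAT boxes and the NEK8 window 0, while 32.0% of 35116 such windows hold this motif. The NEK2 window also has 2 and 1 of the 2 NEK11 windows has 1, while the 4 other windows of NEK6 and the 2 windows of NEK3 have none. None of the NEK3 windows held the core of the antioxidant response element (letters TGACNNNGC, in 10.9% of all windows), the cell cycle homology region (TTTGAA, 13.3%), the cAMP response element (TGACGTCA, 1.65%) or the AP-1 site (TGANTCA, 6.57%), each searched on both strands. The cAMP response element was found in the NEK1 window and the antioxidant core in 1 further window of NEK6. A match of letters is a description of the window and says nothing of factors bound there.

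Genes that work with the NEK kinases were followed as lists, 74 genes in all, of which 70 were tested. edgeR called 1 of them lower and 0 higher, 11 had an unadjusted p under 0.05 above 0 and 10 below, and DESeq2 called 3 higher and 4 lower. Over all tested genes edgeR called 0.743% lower and 1.11% higher. The unadjusted shares were 10.9% above 0 and 9.43% below, and those of DESeq2 2.25% higher and 2.82% lower. These shares also stand beside the counts of each list below. The median log2 fold change of the 70 genes was -0.02, with 34 above 0 and 36 below, against 0.01 and 50.9% above 0 for all tested genes.

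The called partner belonged to the list around NEK3. VAV3, an exchange factor that activates RAC1, was measured at 26.6 and 28.0 CPM in control and at 13.2 and 15.1 CPM with chaetocin. Both treated samples lay well below both controls, with a log2 fold change of -0.95 (SE 0.17) and an adjusted p of 0.0396 by edgeR. With a lone control sample it missed the threshold, at an adjusted p of 0.0703 without control replicate 1 and 0.111 without control replicate 2 by edgeR. Of the 8 tested genes of the list, which holds the prolactin receptor, VAV factors, RAC1 and STAT5 genes, 2 had values above 0 and 6 below, with a median of -0.12. An unadjusted p under 0.05 was found for 1 above 0 and 3 below, against 10.9% and 9.43% of all tested genes. DESeq2 called 2 lower, where it called 2.82% of all genes lower. PRLR (-0.16), VAV2 (-0.09) and RAC1 (-0.08) overlapped between the groups. Of the other genes, 2 lay above both controls and 3 below, against 26.8% and 26% of all tested genes. The value furthest from 0 was that of STAT5A, at 1.79 (SE 0.58, adjusted p = 0.138 by edgeR), with 0.369 and 0.174 CPM in control and 0.781 and 1.07 CPM with chaetocin. STAT5A, the 1 gene above 0 with an unadjusted p under 0.05, had 9 and 5 counts in control and 17 and 38 with chaetocin. It passed the filter on low counts only through the treated samples.

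The list around NEK2, with centrosome linker and spindle checkpoint genes, had 12 of 15 genes above 0 and a median of 0.27. edgeR called 0 of them, 4 had an unadjusted p under 0.05, and DESeq2 called 1. NDC80, a kinetochore protein, was at 0.69 on the log2 scale (adjusted p = 0.0562 by edgeR), and CEP85, an inhibitor of NEK2 at the centrosome, was at 0.68 (adjusted p = 0.0831). In the cascade of NEK9, NEK6 and NEK7, 8 of 12 genes were above 0 with a median of 0.10. edgeR called 0, 2 in each direction had an unadjusted p under 0.05, and DESeq2 called 1. CDK1, the main mitotic kinase, was at 0.66 on the log2 scale (adjusted p = 0.0634 by edgeR), and EML4, a microtubule protein phosphorylated by NEK6 and NEK7, was at -0.44 (adjusted p = 0.182). CDK1 and AURKB, at 0.58, were also the proliferation genes furthest from 0.

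In the cilium list around NEK8 and NEK4, 3 of 17 tested genes were above 0 and 14 below, with a median of -0.15, while 50.9% of all tested genes were above 0. The groups overlapped for 10 of the 17, and for 7762 of all 16416 tested genes. edgeR called 0 of the 17. An unadjusted p under 0.05 was found for 3 below 0 and 1 above, against 9.43% and 10.9% of all tested genes. DESeq2 called 2 lower, against 2.82% of all genes. INVS, which encodes the inversin that recruits NEK8 to the cilium, was at -0.77 on the log2 scale (adjusted p = 0.0773 by edgeR), and BICC1, a partner of ANKS6, was at -0.75 (adjusted p = 0.0503). The lower calls of DESeq2 were these 2 genes. NEK8 and INVS had opposite signs, and edgeR called neither. The DNA damage list had 7 of 13 genes above 0 and a median of 0.02, with 0 called by edgeR, 3 at an unadjusted p under 0.05 and 1 called by DESeq2. RAD54L, of homologous recombination, was at 0.73 on the log2 scale (adjusted p = 0.0533 by edgeR), and CDC25A, the target of NEK11, was at 0.53 (adjusted p = 0.166).

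In the inflammasome list around NEK7, 5 genes were tested, with a median of -0.75 and 3 of them below 0. edgeR and DESeq2 called 0, and 2 had an unadjusted p under 0.05. CASP1, the inflammasome protease, was at -0.85 on the log2 scale (adjusted p = 0.119 by edgeR). IL1B was at -0.81 (adjusted p = 0.670), with levels of 146 and 92.5 CPM in control and 119 and 17.7 CPM with chaetocin that overlapped between the groups. NLRP3 was at -0.75 (adjusted p = 0.192 by edgeR), while the adaptor PYCARD, at 0.65, and GSDMD, at 0.09, lay above 0.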

How the data were processed

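U87MG RNA was polyA-selected and sequenced in 2 control and 2 chaetocin samples, grouped by the sample labels. The authors deposited raw counts per gene, without normalization. The submitters' processing notes name cutadapt, TopHat2, SAMtools and build GRCh37, while the counting tool and its use of strand are not given in the sources used here. Gene names and positions came from GENCODE v29 on GRCh38 by Ensembl identifier, with 52338 of 57905 genes matched.

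Tests were edgeR's quasi-likelihood test (edgeR 4.0.16, R 4.3.3) with filterByExpr (minimum count 10), TMM factors and no block, with Benjamini-Hochberg adjustment over all 16416 tested genes. Replicate numbers are shared between the groups, but nothing ties them to a shared batch. A count of 0 allows up to 3 counts, or 0.0844 to 0.138 CPM by library. Alternatives were DESeq2 1.42.0, other scalings and filters, thinning, a block and leaving out each sample. The test was checked on simulated data. Members and gene lists were chosen with earlier results of these data known. Named genes were the members, NEK5, NEK10, tested neighbours of NEK3, the 5 genes most like it, and called partners or otherwise the 2 with the largest change in each list. NLRP3, PYCARD, GSDMD, STAT5A, PRLR, VAV2, RAC1 and TLCD1 were added after their values were seen. TXNIP, PECAM1 and the planned protein identities were not analysed here, and 1 marker is not reported here.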

Additional observations from a re-analysis of the deposited data

How the results depend on the processing

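The direction of all members other than NEK4 and NEK9 was the same under every alternative. NEK4 was at 0.066 on the log2 scale without chaetocin replicate 1, and NEK9 at -0.01 without control replicate 1 and at -0.22 without chaetocin replicate 2, and none of these passed the threshold. Leaving out each sample gave -0.46 to 0.066 for NEK4 and -0.22 to 0.23 for NEK9. The calls depended on the settings. Without a filter 787 genes were higher and 759 lower (NEK members 2 and 2, partners 4 and 5, NEK3 neighbours 1 lower). With at least 10 counts in every sample they were 114 and 80, and thinned to the smallest library 85 and 51 (NEK members lower 0, partners lower 0). In the thinned counts NEK3 was at -2.53 and VAV3 at -0.93 on the log2 scale, and edgeR called neither. DESeq2 gave 382 and 478 (NEK members lower 2, partners 3 and 4). Upper-quartile scaling called 3 partners higher and RLE 2 lower. Leaving out each sample gave 215 to 1332 genes higher and 97 to 1673 lower, 0 to 2 NEK members higher and 1 to 2 lower, 0 to 7 partners higher and 0 to 9 lower, and 0 to 1 neighbours lower. NEK3 ran from -2.73 to -2.04 on the log2 scale over these fits.

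With a replicate block the counts were 1036 higher and 1053 lower, with 2 NEK members in each direction, 6 partners in each, and 1 neighbour lower. NEK6 (adjusted p = 0.00092 by edgeR) and NEK8 (0.0272) were then also called. The labels share replicate numbers but no pairing is stated. Over the 16416 tested genes, the log2 difference of sample 2 from sample 1 in control had a correlation of 0.12 with that in chaetocin. NEK3 rests on 2 samples a group and 12 counts in each treated sample, and its interval does not allow for its having been chosen by the fall.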
